A study of Caenorhabditis elegans with 12 samples.

Results

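The RNA of early embryos of Caenorhabditis elegans that carried both met-2(n4256) and set-25(n5021) was compared with that of N2 (Bristol), the wild-type laboratory strain. The comparison used the 6 libraries labelled with these genotypes, 3 of the double mutant and 3 of N2, out of 12 in the series, and the remaining 6 were of the single mutants met-2(n4256) and set-25(n5021). Both alleles lie on chromosome III, and N2 carries neither. Embryos from before the bean stage, of up to about 300 cells, were collected 60 to 65 h after the worms had been synchronized as L1 larvae and grown at 20 °C. The labels say that this time depended on the strain and do not give it for each one, so the age of the worms and the genotype cannot be told apart. They also state 2 independent biological replicates where 3 libraries per genotype are listed, so the p-values below measure the spread between these libraries, part of which may be technical. Libraries were made from total RNA after removal of ribosomal RNA, and the deposited values are read counts per gene and per repeat family. The libraries are called a, b and c, as in the deposited tables.

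MET-2 is the worm's enzyme for mono- and dimethylation of lysine 9 of histone H3, and SET-25 adds the third methyl group and also works along a separate, small-RNA-guided route. Embryos that lack both are known to have no detectable methylation of this lysine. The mark covers repeats, transposons and silent tissue-specific genes, is dense on the arms of the autosomes, and holds this chromatin at the nuclear rim in embryos.

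The double mutant libraries held 42943190 to 46833848 counts in genes and the N2 libraries 41033729 to 52683919. Across genes, Spearman correlations were 0.997 within the double mutant, 0.991 to 0.996 within N2 and 0.965 to 0.982 between the genotypes. The first principal component held 81.4% of the variance and separated the genotypes, with the double mutant at -50.4 to -46.1. N2 library c stood apart at 69.4, with N2 library a at 40.4 and b below that. Its summed levels of the muscle, pharynx, intestine, epidermis, collagen, cuticlin and Hedgehog-related lists described below were the lowest of N2, and its level of the neuron list lay between those of the other N2 libraries.

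The mutated genes were the first check of the labels. met-2 (chromosome III, 8375300 to 8380848 on the forward strand in the WBcel235 annotation) stood at 49.4, 46.5 and 47.2 CPM (gene counts scaled to a common library size by the trimmed mean of M-values) in double mutant libraries a, b and c and at 284, 299 and 289.7 CPM in the N2 libraries, a change of -2.61 on the log2 scale (SE 0.03, adjusted p = 8.60e-08). set-25 (chromosome III, 13283824 to 13293090 on the reverse strand in the WBcel235 annotation) stood at 52.4, 56.8 and 55.04 CPM against 163, 168 and 197 CPM, a change of -1.69 on the log2 scale (SE 0.09, adjusted p = 5.62e-06). The groups did not overlap for either gene, and both transcripts were still counted in the double mutant. In a fit of all 12 libraries met-2 was at 51.1 to 54.3 CPM in the double mutant and at 315, 330.2 and 320.2 CPM in N2. The libraries labelled met-2, which by their label carry the same allele, had 215, 275 and 313 CPM. Their difference from N2 did not pass the threshold (adjusted p = 0.0756), so their met-2 RNA does not show the decrease seen in the double mutant. They also had less set-25 RNA, 77.2, 109 and 115 CPM against 181, 186 and 218 CPM in N2 (log2 change -0.95, adjusted p = 1.00e-04), a gene that their label does not name. Both levels go against the label of these libraries, and every difference from them given below is a difference from libraries so labelled.

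Of 13073 genes with enough counts to test, 3139 (24%) were higher in the double mutant and 2976 (22.8%) were lower at an adjusted p under 0.05 (edgeR quasi-likelihood test, Benjamini-Hochberg adjustment over all tested genes). The directions differed in size. At least 2-fold higher were 1756 genes (13.4%), and at least 2-fold lower were 205 (1.57%). Many raised genes were nearly silent in wild-type embryos. Under 1 CPM in N2 lay 1287 of all 3139 raised genes and 64.2% of those raised at least 2-fold, against 23.2% of all tested genes. The median level of those raised at least 2-fold moved from 0.531 to 1.95 CPM. All of them together rose from a summed 7258 CPM to 20157 CPM, so they remained a small part of the RNA. A gene below the filter on low counts in N2 could pass it only through the double mutant, and so only by being higher there. For genes named below with N2 levels that low, the filter set the direction, and their p-values are not support for it. The groups did not overlap for 7801 of the 13073 tested genes. The median log2 change over all tested genes was -0.01. Among the N2 libraries alone, library c had the lowest value for 68.1% of the genes raised at least 2-fold and for 37.6% of all tested genes. Without N2 library c, 3545 genes were higher and 3143 lower. The count of lowered genes was 1922 without double mutant library a and 1839 without c. With all 12 libraries in 1 fit, whose spread includes the libraries labelled met-2 and set-25, 1241 were higher and 476 lower.

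**Figure D1:**
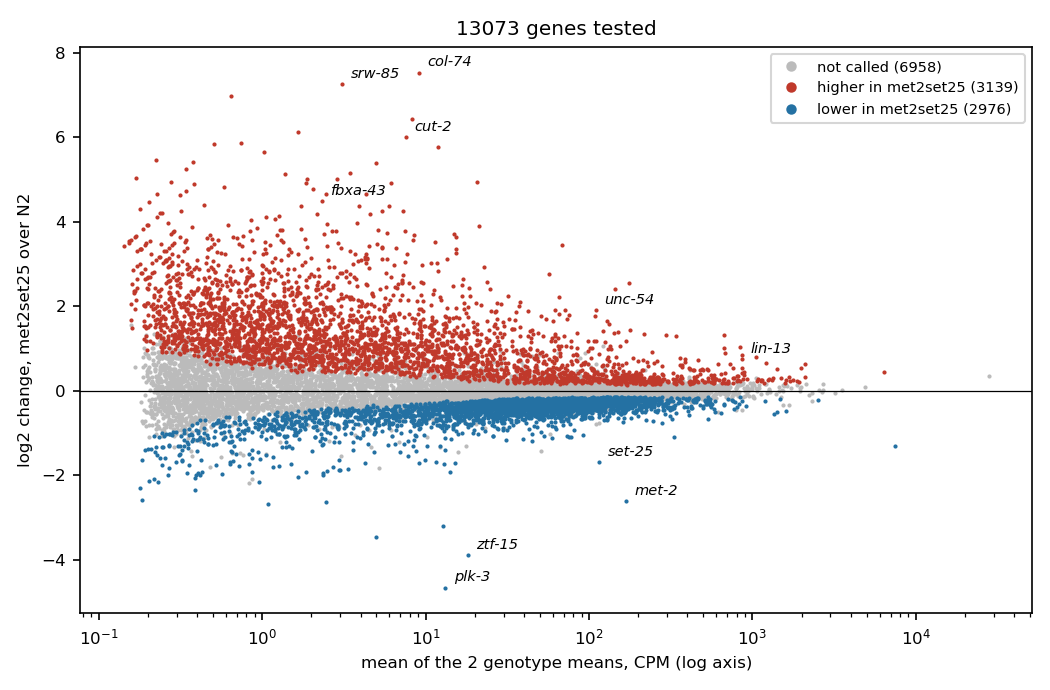
Each point is 1 of the 13073 tested genes, by the mean of the genotype means in CPM (log axis) and by its log2 change in met2set25 over N2. Red points are the 3139 genes called higher and blue points the 2976 called lower. The raised genes with large changes lie mostly at low CPM, and met-2, set-25, plk-3 and ztf-15 stand out among the lowered ones.

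Several of the largest increases were of cuticle and epidermal genes that N2 embryos barely expressed. The collagen gene col-74 had 21.3, 16.9 and 16.54 CPM in the double mutant libraries and 0.112, 0.145 and 0.0247 CPM in N2, a change of 7.53 on the log2 scale (SE 0.46, adjusted p = 1.37e-06). Another cuticle collagen, col-165, had 19.1, 15.4 and 14.3 CPM against 0.0937, 0.436 and 0.0494 CPM, a change of 6.43 on the log2 scale (SE 0.72, adjusted p = 9.45e-05). The cuticlin genes cut-2 and cut-3 code for insoluble proteins of the cuticle. cut-2 had 16.487, 14.4 and 14.02 CPM against 0.169, 0.436 and 0.0988 CPM, a change of 6.002 on the log2 scale (SE 0.52, adjusted p = 1.42e-05), and cut-3 had 6.37, 7.74 and 5.96 CPM against 0.225, 0.218 and 0.0988 CPM, a change of 5.16 on the log2 scale (SE 0.32, adjusted p = 7.19e-06). In each of these 4 genes the lowest double mutant library lay far above the highest N2 library, and N2 library c was the lowest of N2. A lack of overlap was a rule for choosing them. None of the 4 reached the filter on low counts in every N2 library, so each passed it only with double mutant libraries. Their p-values are therefore not support for the direction.

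Secreted proteins related to Hedgehog, which worms use in the cuticle and other apical coats, were also among the largest increases. grl-7 had 6.54, 5.35 and 4.84 CPM against 0.225, 0.242 and 0.0247 CPM, a change of 5.02 on the log2 scale (SE 0.68, adjusted p = 5.61e-05). grl-15 had 4.11, 3.95 and 3.74 CPM against 0.0562, 0.315 and 0.0741 CPM, a change of 4.77 on the log2 scale (SE 0.58, adjusted p = 7.79e-05). wrt-1 had 14.4, 14.03 and 12.9 CPM against 0.825, 1.24 and 0.0741 CPM, a change of 4.25 on the log2 scale (SE 1.07, adjusted p = 0.00167). On the log scale the N2 libraries differed among themselves by more than the double mutant libraries did, with N2 library c lowest for grl-7 and wrt-1. osm-8, which codes for a mucin-like protein of the epidermis, had 3.12, 3.08 and 3.67 CPM against 0.131, 0.339 and 0 CPM, a change of 4.38 on the log2 scale (SE 0.91, adjusted p = 5.54e-04). These genes too passed the filter on low counts only with double mutant libraries, so their p-values are not support for the direction.

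Other genes among the highest were not of the epidermis. srw-85, of a family of putative chemoreceptors, had 6.05, 6.48 and 5.91 CPM against 0, 0.0969 and 0.0247 CPM, a change of 7.27 on the log2 scale (SE 0.49, adjusted p = 1.46e-05). fbxa-43, of the F-box family whose proteins recruit targets to ubiquitin ligases, had 4.81, 3.86 and 4.63 CPM against 0.131, 0.170 and 0.296 CPM, a change of 4.49 on the log2 scale (SE 0.30, adjusted p = 1.54e-05). pqn-32, which codes for a protein rich in glutamine and asparagine, had 8.92, 8.19 and 7.78 CPM against 0.262, 0.363 and 0.371 CPM, a change of 4.65 on the log2 scale (SE 0.15, adjusted p = 1.50e-06). asp-1, an aspartyl protease of the gut, had 8.67, 7.11 and 6.75 CPM against 0.244, 0.557 and 0.296 CPM, a change of 4.38 on the log2 scale (SE 0.34, adjusted p = 1.97e-05). For fbxa-43 and pqn-32, unlike the cuticle genes, N2 library c was the highest of N2. Of genes without a symbol, C50D2.1 had 3.73, 3.36 and 2.76 CPM against 0.0562, 0.0484 and 0.0247 CPM, a change of 6.13 on the log2 scale (SE 0.21, adjusted p = 6.96e-06). F41F3.3 had 26.8, 21.7 and 21.2 CPM against 0.356, 0.872 and 0.0494 CPM, a change of 5.77 on the log2 scale (SE 0.97, adjusted p = 4.24e-04). Y47D7A.13 had 2.42, 1.69 and 1.89 CPM against 0.0375, 0.0727 and 0 CPM, a change of 5.66 on the log2 scale (SE 0.44, adjusted p = 5.78e-05). srw-85, fbxa-43, C50D2.1, F41F3.3 and Y47D7A.13 passed the filter on low counts only with double mutant libraries. Their p-values are not support for the direction.

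**Figure D2:**
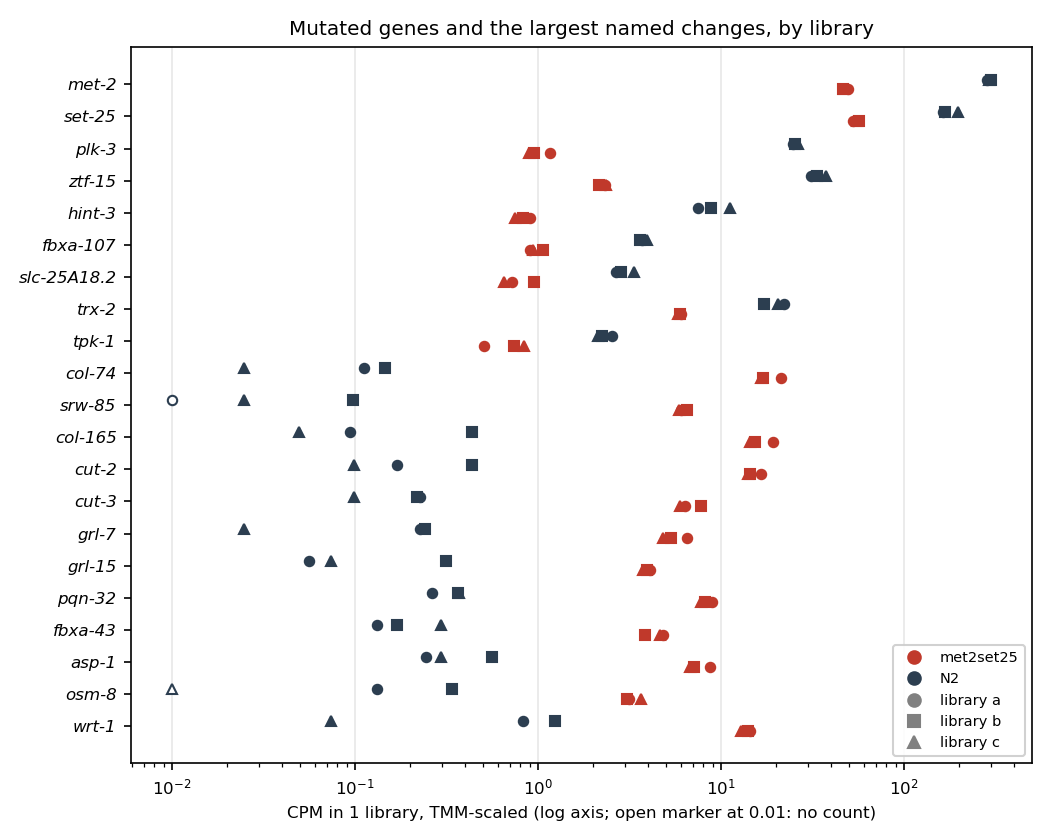
Each row is 1 gene, with a point for the CPM of each library on a log axis, red for met2set25 and dark for N2, with the shape giving the library letter. An open point at the left edge is a library with no count. For all 21 genes shown, the 3 libraries of one genotype lie on one side of the 3 of the other, and the N2 points of the raised genes spread more widely than the double mutant points. Apart from the mutated genes, the genes were chosen for this lack of overlap, which 7801 of 13073 tested genes had.

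Structural genes of body wall muscle rose almost as a whole. Of 20 tested markers, 19 (95%) were higher and none lower, with a median log2 change of 1.51. Over all tested genes 24% were higher and 22.8% lower. The giant muscle protein gene unc-22 had 50.4, 48.99 and 48.5 CPM against 16.53, 16.96 and 11.9 CPM, a change of 1.703 on the log2 scale (SE 0.17, adjusted p = 4.97e-05). unc-87, which codes for a protein of the thin filaments, had 6.49, 7.63 and 6.98 CPM against 2.08, 2.20 and 0.766 CPM, a change of 2.05 on the log2 scale (SE 0.48, adjusted p = 0.00179). For both, all double mutant libraries lay above all N2 libraries and N2 library c was the lowest. dim-1, for an immunoglobulin-repeat protein of the muscle attachments, had 77.9, 80.9 and 83.3 CPM against 59.1, 54.7 and 50.8 CPM, a change of 0.56 on the log2 scale (SE 0.07, adjusted p = 5.41e-04). The main myosin heavy chain gene of this muscle, unc-54, chosen here after its values were seen, had 176, 170.2 and 176 CPM against 56.4, 58.8 and 23.6 CPM. The marker that did not pass was hlh-1, the MyoD-like factor of the muscle lineage, at 64.96, 62.5 and 66.4 CPM against 71.3, 61.6 and 62.0 CPM. The list's summed level was 2274 to 2314 CPM in the double mutant, 1274 and 1232 CPM in N2 libraries a and b, and 838 CPM in N2 library c. Without N2 library c, 19 were higher, with a median of 1.18. In the fit of all 12 libraries 9 were, and unc-22 (adjusted p = 0.0536) and dim-1 (adjusted p = 0.155) were not. In bulk RNA, more cells of a type and more RNA per cell cannot be told apart, and the part of embryo stage in these changes was not tested.

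Among pharynx and gut markers too, more were higher than lower, beside 24% higher and 22.8% lower over all tested genes. Of 11 tested pharynx markers, 8 were higher and none lower, with a median of 1.44. The pharyngeal myosin gene myo-1 had 3.61, 3.71 and 2.97 CPM against 0.394, 0.266 and 0.296 CPM, a change of 3.39 on the log2 scale (SE 0.18, adjusted p = 2.38e-05). The troponin gene tnt-4 had 5.97, 4.03 and 4.06 CPM against 0.337, 0.460 and 0.0988 CPM, a change of 3.94 on the log2 scale (SE 0.58, adjusted p = 1.43e-04), and tni-4, also a troponin gene, had 4.17, 4.36 and 4.58 CPM against 0.956, 1.04 and 0.494 CPM, a change of 2.38 on the log2 scale (SE 0.32, adjusted p = 1.96e-04). For myo-1 no N2 library stood apart. The troponin genes again had their lowest value in N2 library c. Of 15 tested intestine markers, 9 were higher and 2 lower, with a median of 0.61 (0.40 without N2 library c). The protease gene asp-3 had 7.19, 6.26 and 5.44 CPM against 0.844, 0.751 and 0.272 CPM, a change of 3.31 on the log2 scale (SE 0.49, adjusted p = 1.51e-04). The lysozyme gene lys-8 had 2.49, 3.16 and 2.52 CPM against 0.394, 0.363 and 0.0494 CPM, a change of 3.28 on the log2 scale (SE 0.73, adjusted p = 5.23e-04). The GATA factors of the gut moved less: elt-2 had 38.3, 34.9 and 39.3 CPM against 33.6, 33.1 and 29.96 CPM, a change of 0.22 on the log2 scale (SE 0.07, adjusted p = 0.0461), and elt-7 had 17.3, 21.98 and 20.04 CPM against 31.5, 21.2 and 26.8 CPM, a change of -0.42 on the log2 scale (SE 0.19, adjusted p = 0.0446). Neither call held with all 12 libraries in 1 fit, where elt-2 had an adjusted p of 0.323 and elt-7 of 0.268, nor without double mutant library a or c. The groups overlapped for elt-7. That fit called 3 pharynx and 3 intestine markers higher and none lower. Without N2 library c, the counts were 9 higher for pharynx, and 8 higher and 2 lower for intestine.

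Epidermis markers held structural genes that rose and a fate factor that fell. Of 17 tested, 11 (64.7%) were higher and 1 (5.88%) lower, with a median of 0.65. The shares over all tested genes were 24% and 22.8%. vab-10, which codes for a spectraplakin of the fibrous organelles, had 1547, 1400.0 and 1509 CPM against 992, 1034 and 806 CPM, a change of 0.65 on the log2 scale (SE 0.12, adjusted p = 0.00112), and the collagen gene dpy-5 had 0.864, 0.629 and 0.771 CPM against 0.14997, 0.266 and 0.0494 CPM, a change of 2.26 on the log2 scale (SE 0.52, adjusted p = 0.00255). The lowered marker was elt-1, the GATA factor of the epidermal lineage, with 156, 175 and 173 CPM against 209.9, 193 and 212 CPM, a change of -0.29 on the log2 scale (SE 0.07, adjusted p = 0.00766). Summed over the list, the level was 6316 to 6749.7 CPM in the double mutant, 4529.8 and 4557 CPM in N2 libraries a and b, and 3320.1 CPM in N2 library c. Over the families, 19 of 50 tested cuticle collagens were higher and 4 lower (median 0.44), 15 of 29 cuticlins were higher and 2 lower (median 0.96), and 32 of 57 Hedgehog-related genes were higher and 3 lower (median 0.83). The tested members came from 156 cuticle collagens, 35 cuticlins and 83 Hedgehog-related genes. Those below the filter on low counts in N2 pass it only through the double mutant. The fit of all 12 libraries gave higher counts of 4 for epidermis markers, 8 for collagens, 12 for cuticlins and 22 for Hedgehog-related genes, and vab-10 (adjusted p = 0.157) and elt-1 (adjusted p = 0.1198) were not called.

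**Figure D3:**
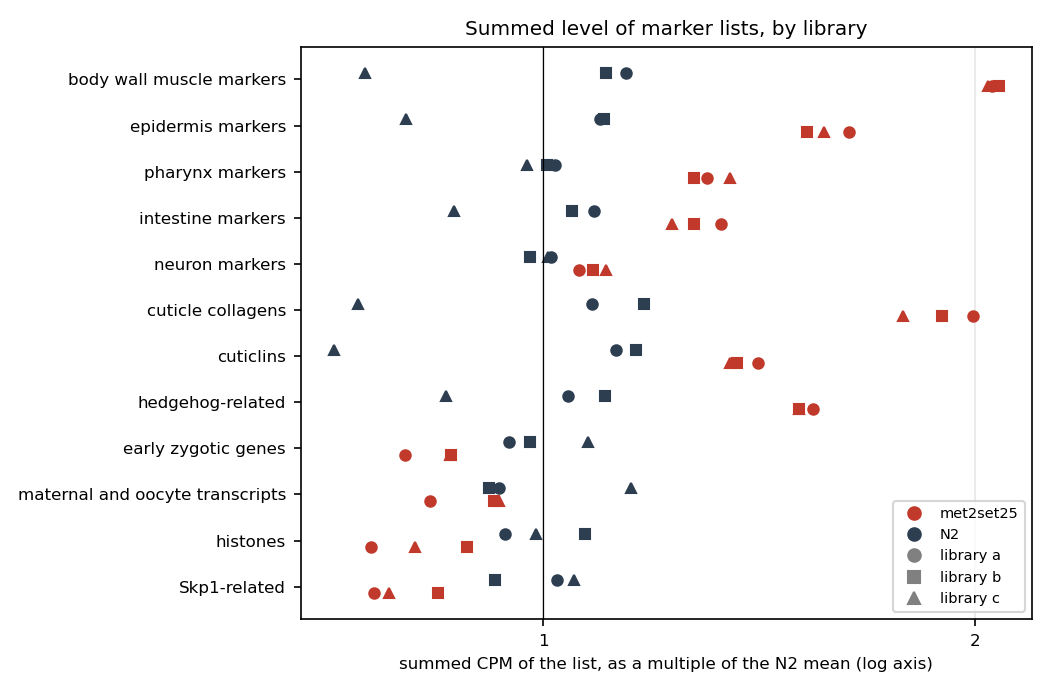
The summed CPM of 12 gene lists in each library is shown as a multiple of the N2 mean on a log axis, red for met2set25 and dark for N2, with the shape giving the library letter. For the muscle, epidermis, collagen and cuticlin lists N2 library c lies below the other N2 libraries and the double mutant above all 3. For the early zygotic genes and the histones the double mutant lies below all 3 N2 libraries.

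Of 22 tested neuron markers, 12 were higher, none was lower and 10 were not called, with a median of 0.71. unc-13, needed for release of synaptic vesicles, had 12.31, 11.4 and 11.03 CPM against 2.29, 2.62 and 1.11 CPM, a change of 2.52 on the log2 scale (SE 0.38, adjusted p = 2.54e-04). The neuropeptide-processing gene egl-21 had 1.90, 2.19 and 2.20 CPM against 0.656, 0.848 and 0.494 CPM, a change of 1.65 on the log2 scale (SE 0.22, adjusted p = 6.69e-04). The groups did not overlap for these genes, and N2 library c was the lowest. The synaptotagmin gene snt-1 had 0.970, 0.802 and 0.771 CPM against 0.262, 0.266 and 0.198 CPM, a change of 1.79 on the log2 scale (SE 0.15, adjusted p = 8.84e-04). The summed level of the list, 581 to 607 CPM in the double mutant and 537 to 556 CPM in N2, moved less than the median, and its most abundant member, the synaptobrevin gene snb-1, was not called. Only 3 were higher in the fit of all 12 libraries, and snt-1 was not (adjusted p = 0.0853). Of 38 tested neuropeptide genes, 8 were higher and 10 lower, shares of 21.1% and 26.3%, near the 24% and 22.8% of all tested genes. Of 7 tested markers of somatic gonad and adult gut, 3 were higher (median 0.28, and -0.0080 without N2 library c), among them the yolk protein gene vit-1 with 0.780, 0.845 and 0.701 CPM against 0.244, 0.0969 and 0.0741 CPM, a change of 2.39 on the log2 scale (SE 0.40, adjusted p = 0.00134). The summed level of that list was 69.5 to 71.5 CPM against 43.4 to 56.3 CPM, and its part in the other results was not tested.

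Among markers of sperm and spermatogenesis, N2 library c was not the lowest. Of 49 markers in the table, 10 could be tested, of which 5 were higher and none lower (median 0.59). The median was 1.097, with 7 higher, when N2 library c was left out. Markers below the filter on low counts in N2 pass it only through the double mutant. These counts and medians therefore do not describe the whole list. The kinase gene spe-6 had 9.89, 9.41 and 10.2 CPM against 3.02, 3.51 and 3.85 CPM, a change of 1.51 on the log2 scale (SE 0.11, adjusted p = 1.05e-04), and the myosin gene spe-15 had 15.7, 15.2 and 15.7 CPM against 5.59, 6.20 and 7.16 CPM, a change of 1.299 on the log2 scale (SE 0.10, adjusted p = 1.14e-04). N2 library c was the highest of N2 for both, and the groups did not overlap. Of 87 genes for sperm proteins in the table, only 5 passed the filter on low counts. A gene below that filter in N2 passes it only through the double mutant, so no count over those 5 is given. nspd-7, of a family of small sperm proteins, had 0.907, 0.759 and 0.794 CPM against 0.112, 0.0242 and 0.198 CPM, a change of 2.85 on the log2 scale (SE 0.54, adjusted p = 0.00101). It lay below that filter in every N2 library, so its p-value is not support for the direction. The summed level of these 87 genes was 3.47 to 3.82 CPM in the double mutant and 1.22 to 1.704 CPM in N2, and 39 of them had no count in any of the 6 libraries. fog-3, which commits germ cells to sperm, had 0.401, 0.737 and 0.841 CPM against 0.187, 0.0727 and 0.346 CPM, a change of 1.698 on the log2 scale (SE 0.59, adjusted p = 0.0168), and was not called with all 12 libraries in 1 fit (adjusted p = 0.0600) or without double mutant library b or c or N2 library a. That fit called 3 of 12 spermatogenesis markers higher, with a median of 0.195 over those 12.

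For 26 raised genes the 3 N2 libraries together held 3 counts or fewer, so their ratios rest on the double mutant's counts. The gene with the highest level among them, F30A10.2, had 198 counts in the double mutant and 3 in N2, a ratio of library-scaled counts of 65.4 (exact 95% interval 22.1 to 319.8, counting error only). grl-5, of the Hedgehog-related family, had 175 counts against 1, a ratio of 173 (30.7 to 6887). Both intervals are wide, with at most 3 counts in N2. F53F1.4 had 136 against 2, a ratio of 67.4 (18.3 to 562), and T07G12.3 held 3 counts in N2, a ratio of 33.4 (11.1 to 164). H23N18.5 had 103 against 2, a ratio of 51.02 (13.8 to 427), and the C-type lectin gene clec-17 had 91 against 2, a ratio of 45.1 (12.1 to 378). All 26 tested genes with 3 N2 counts or fewer were called higher. Such a gene passes the filter on low counts only through the double mutant. The direction was thus set by the filter, and no p-value is given as support. The 6 genes named here are all protein-coding, and 3 of them lie on chromosome V.

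Large families of tissue-specific genes were split. Over all tested genes 24% were higher and 22.8% lower. Members below the filter on low counts in N2 pass it only through the double mutant. Of 56 tested C-type lectins, 24 were higher and 10 lower, with a median of 0.59, out of 240 in the table. Summed over all of them the level went the other way, 2502 to 2625 CPM in the double mutant and 2730.0 to 3188 CPM in N2. clec-72 had 1.83, 2.06 and 1.94 CPM against 0.206, 0.339 and 0.272 CPM, a change of 2.85 on the log2 scale (SE 0.18, adjusted p = 6.70e-05), and clec-63 had 0.928, 0.889 and 0.934 CPM against 0.0937, 0.0484 and 0.0741 CPM, a change of 3.59 on the log2 scale (SE 0.17, adjusted p = 8.11e-05). Both rose from low levels with no overlap between groups. clec-63 lay below the filter on low counts in every N2 library, so its p-value is not support for the direction. The lowered clec-171 had 1.33, 1.41 and 1.78 CPM against 3.17, 3.17 and 3.71 CPM, a change of -1.15 on the log2 scale (SE 0.14, adjusted p = 0.00119). Of 183 tested nuclear hormone receptors, 54 were higher and 14 lower (median 0.24, and 0.151 with 57 higher and 20 lower without N2 library c), as for nhr-180 with 1.56, 1.58 and 1.61 CPM against 0.431, 0.412 and 0.321 CPM, a change of 2.01 on the log2 scale (SE 0.12, adjusted p = 1.89e-04). Of 1308 chemoreceptor genes only 123 were tested, of which 19 were higher and 16 lower (median -0.13, and -0.021 without N2 library c). The examples of both directions have levels under 2 CPM. Every N2 library lay below the filter on low counts for sri-62, so its p-value is not support for the direction. sri-62 had 1.14, 1.17 and 1.07 CPM against 0.0375, 0 and 0.0741 CPM, a change of 4.83 on the log2 scale (SE 0.42, adjusted p = 1.11e-04), while srsx-27 had 0.759, 0.694 and 0.748 CPM against 1.39, 1.24 and 1.61 CPM, a change of -0.94 on the log2 scale (SE 0.11, adjusted p = 0.00463). Higher in the fit of all 12 libraries were 16 C-type lectins, 9 nuclear hormone receptors and 11 chemoreceptors.

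The F-box proteins of the worm fall into several large families. Of 72 tested fbxa genes, 17 were higher and 16 lower, with a median of -0.09. These shares, 23.6% and 22.2%, are close to the 24% and 22.8% of all tested genes. fbxa-136 had 5.69, 5.12 and 5.35 CPM against 0.844, 0.896 and 0.593 CPM, a change of 2.78 on the log2 scale (SE 0.18, adjusted p = 3.12e-05). fbxa-192 had 4.05, 4.12 and 3.74 CPM against 11.1, 11.6 and 12.4 CPM, a change of -1.56 on the log2 scale (SE 0.06, adjusted p = 5.60e-05). Of 138 tested fbxb and fbxc genes, 7 were higher and 68 lower, with a median of -0.28. The difference between these families was not tested. fbxb-91 had 39.2, 38.7 and 40.9 CPM against 57.2, 62.9 and 64.97 CPM, a change of -0.64 on the log2 scale (SE 0.06, adjusted p = 2.56e-04), with no overlap, and N2 library a lay nearest to the double mutant. By contrast, fbxb-37 had 159, 141.8 and 144 CPM against 82.7, 76.6 and 83.5 CPM, a change of 0.87 on the log2 scale (SE 0.06, adjusted p = 5.13e-05). Among fbxb and fbxc genes, 3 were higher and 11 lower with all 12 libraries in 1 fit. Members of the related MATH and BTB family, which act as adaptors of another class of ubiquitin ligase, were 14 higher and 21 lower of 62 tested (22.6% and 33.9%). bath-38 had 177, 169 and 170.1 CPM against 72.2, 88.8 and 69.7 CPM, a change of 1.16 on the log2 scale (SE 0.11, adjusted p = 5.78e-05), and bath-19 had 3.88, 3.71 and 3.25 CPM against 0.469, 0.557 and 0.642 CPM, a change of 2.71 on the log2 scale (SE 0.14, adjusted p = 3.92e-05).

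The remaining lists had medians of -0.23 to 0.38. Over all tested genes 24% were higher and 22.8% lower, and the counts of these lists are to be read beside those shares. Of 50 tested ceh homeobox genes 9 were higher and 10 lower, and ceh-91 had 100.2, 95.6 and 104 CPM against 38.6, 40.4 and 43.3 CPM, a change of 1.29 on the log2 scale (SE 0.06, adjusted p = 7.92e-06). Among enzymes of detoxification, 13 of 43 cytochrome P450 genes were higher and 4 lower, 11 of 51 UDP-glucuronosyltransferases were higher and 7 lower, and 5 of 28 glutathione S-transferases were higher and 7 lower. Of 14 heat shock genes 6 were higher and 1 lower, and hsp-43, for a small heat shock protein, had 1.29, 1.496 and 1.35 CPM against 0.337, 0.291 and 0.0247 CPM, a change of 2.59 on the log2 scale (SE 0.80, adjusted p = 0.00212). Of 19 genes of the oxidative response 3 were higher and 1 lower, and of 8 pathogen response genes 3 were higher and 2 lower. Of 11 pals genes 4 were higher and 1 lower, of 12 insulin-like peptides 1 was higher and 3 lower, and of 75 cytosolic ribosomal proteins 11 were higher and 8 lower with a median of -0.02. Of 20 apoptosis genes 5 were lower and none higher, and the lowered share of 25% is close to the 22.8% of all tested genes. Of 20 genes of dosage compensation and sex determination 3 were higher and 2 lower. Of 13 genes of H3K27 and H3K36 methylation, 1 was higher and 1 lower.

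**Figure D4:**
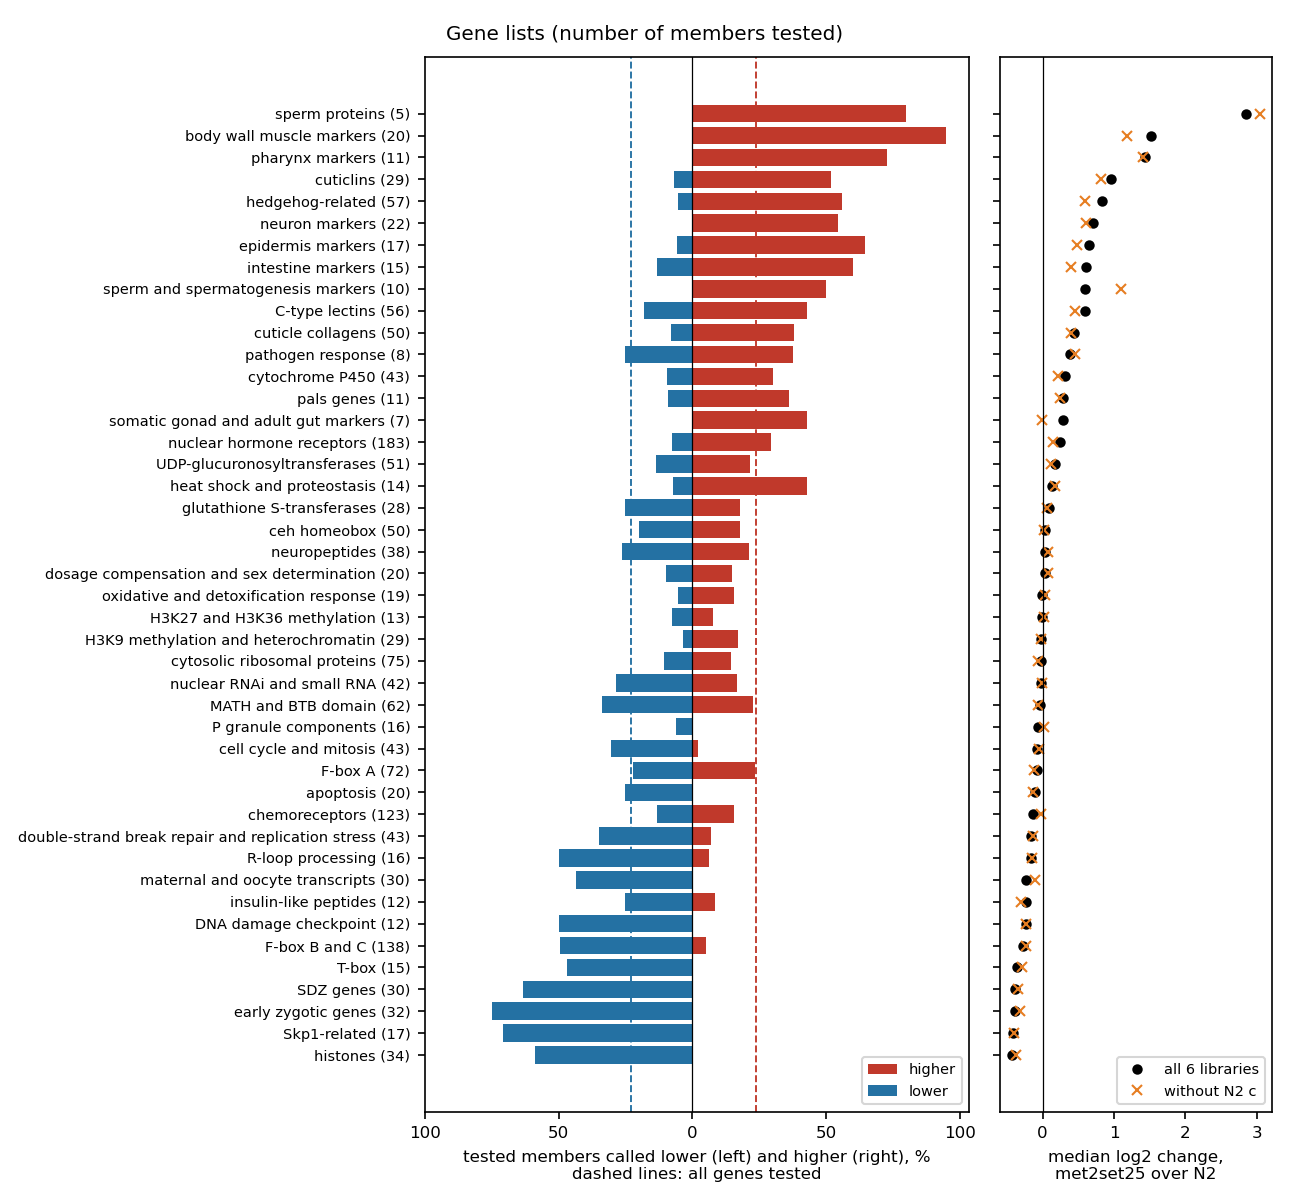
Bars at left give the share of tested members called higher (red, right) and lower (blue, left) for each gene list, with dashed lines at 24% and 22.8%, the shares over all tested genes. Points at right give the median log2 change with all 6 libraries (dots) and without N2 library c (crosses). The sperm protein list lies at the top but holds only 5 tested genes of 87. A gene below the filter in N2 passes it only through the double mutant, so this place is not a result about the family. Muscle, pharynx and cuticlin lists lie next, and histones, Skp1-related and early zygotic genes at the bottom.

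Most tested genes of the list first transcribed in the early embryo were lower, by small amounts. Of 32 tested early zygotic genes, 24 (75%) were lower and none higher, with a median of -0.39. Over all tested genes 22.8% were lower and 24% higher. The mesoderm homeobox gene ceh-51 had 30.99, 30.9 and 29.3 CPM against 45.6, 41.04 and 49.9 CPM, a change of -0.58 on the log2 scale (SE 0.09, adjusted p = 9.05e-04). sdz-31 had 8.26, 9.49 and 7.90 CPM against 15.3, 13.7 and 16.13 CPM, a change of -0.81 on the log2 scale (SE 0.11, adjusted p = 9.70e-04). N2 library c was the highest for both and the groups did not overlap. sdz-1 had 11.996, 13.1 and 11.6 CPM against 19.7, 17.6 and 20.5 CPM, a change of -0.66 on the log2 scale (SE 0.08, adjusted p = 0.00123). The endoderm GATA factor gene end-1, chosen after its values were seen, had 25.6, 26.9 and 27.2 CPM against 35.8, 34.0 and 35.9 CPM, a change of -0.41 on the log2 scale (SE 0.04, adjusted p = 0.00183). The SDZ genes, so named because their zygotic transcription depends on the maternal factor SKN-1, were 19 lower and none higher of 30 tested (median -0.39), and the T-box factors 7 lower and none higher of 15 (median -0.36). Skp1-related genes, the partners of F-box proteins, were 12 lower and none higher of 17 (median -0.42), as for skr-12 with 41.2, 55.3 and 48.8 CPM against 73.8, 69.8 and 81.8 CPM, a change of -0.63 on the log2 scale (SE 0.14, adjusted p = 0.00216). Without N2 library c, 21 early zygotic, 19 SDZ and 9 Skp1-related genes were lower and 1 SDZ gene higher. With all 12 libraries in 1 fit, none of the early zygotic, Skp1-related or T-box genes and 2 SDZ genes were, although the medians stayed at -0.40, -0.43, -0.37 and -0.40. The summed level of the early zygotic list was 2081 to 2239 CPM in the double mutant and 2456 to 2788 CPM in N2, highest in N2 library c.

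Of 30 tested maternal and oocyte transcripts, 13 (43.3%) were lower, none was higher and 17 were not called, with a median of -0.23. The shares over all tested genes were 22.8% lower and 24% higher. The eggshell chitin synthase gene chs-1 had 27.9, 31.3 and 28.6 CPM against 38.7, 41.5 and 47.3 CPM, a change of -0.54 on the log2 scale (SE 0.10, adjusted p = 0.00187), and the cell-fate regulator pos-1 had 467, 523 and 507 CPM against 675, 581 and 758 CPM, a change of -0.43 on the log2 scale (SE 0.12, adjusted p = 0.00721). For pos-1 N2 library b lay nearest to the double mutant and N2 library c highest. Without N2 library c the list had 10 lower and 1 higher and a median of -0.11, and with all 12 libraries in 1 fit 3 were lower and pos-1 was not (adjusted p = 0.121). Of 34 tested histone genes, 20 (58.8%) were lower and none higher, with a median of -0.43. The histone genes have near-identical copies between which reads may be divided, so single members are uncertain. his-61 had 436, 408 and 397 CPM against 735, 596 and 644 CPM, a change of -0.67 on the log2 scale (SE 0.10, adjusted p = 5.13e-04), and its adjusted p was 0.0967 with all 12 libraries in 1 fit, where 4 histone genes were lower. Of 16 tested P granule components, 1 (6.25%) was lower and none higher. Of 43 genes of the cell cycle and mitosis, 13 (30.2%) were lower and 1 (2.33%) higher.

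Genes of DNA repair, checkpoints and R-loop processing were compared because the study concerns BRCA1 and R-loops. Of 43 tested genes for double-strand break repair and replication stress, 15 were lower and 3 higher, with a median of -0.16. These shares were 34.9% and 6.98%, beside 22.8% lower and 24% higher over all tested genes. brc-1, the worm's BRCA1 gene, had 55.1, 56.3 and 58.0 CPM against 68.5, 71.8 and 76.8 CPM, a change of -0.36 on the log2 scale (SE 0.05, adjusted p = 0.00250), a call that all 12 libraries in 1 fit did not give (adjusted p = 0.0807). Its partner brd-1 had 70.9, 69.5 and 68.7 CPM against 80.7, 71.7 and 80.2 CPM and the recombinase gene rad-51 had 62.5, 66.7 and 59.3 CPM against 75.1, 68.2 and 69.5 CPM, and neither passed the threshold (adjusted p = 0.0790 and 0.0637). The nucleotide excision repair gene xpa-1 had 46.1, 45.2 and 49.8 CPM against 68.2, 70.9 and 72.6 CPM, a change of -0.58 on the log2 scale (SE 0.05, adjusted p = 2.74e-04), and the poly(ADP-ribose) polymerase gene parp-1 had 52.7, 58.1 and 55.9 CPM against 39.2, 38.6 and 44.4 CPM, a change of 0.45 on the log2 scale (SE 0.08, adjusted p = 0.00193). The first fell and the second rose, both by less than 2-fold. Of 12 tested checkpoint genes, 6 (50%) were lower and none higher (median -0.24). The clamp gene hus-1 had 11.2, 9.99 and 10.8 CPM against 16.3, 17.9 and 17.5 CPM, a change of -0.69 on the log2 scale (SE 0.06, adjusted p = 8.51e-04), and the p53-like gene cep-1 had 68.2, 71.8 and 69.1 CPM against 79.3, 89.7 and 94.5 CPM, a change of -0.33 on the log2 scale (SE 0.08, adjusted p = 0.00663). Of 16 tested R-loop genes, 8 (50%) were lower and 1 (6.25%) higher (median -0.16). rnh-2, for a ribonuclease that removes RNA from RNA-DNA hybrids, had 30.6, 30.9 and 29.7 CPM against 48.98, 42.7 and 47.6 CPM, a change of -0.61 on the log2 scale (SE 0.06, adjusted p = 4.10e-04). With all 12 libraries in 1 fit, 2 repair genes, no checkpoint gene and 1 R-loop gene were lower, and hus-1 (adjusted p = 0.0512), cep-1 (adjusted p = 0.0980) and parp-1 (adjusted p = 0.156) were not called. No called gene of these 3 lists changed 2-fold.

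Most other factors of H3K9 methylation and heterochromatin were not called. Of 29 tested, 5 (17.2%) were higher, 1 (3.45%) was lower and 23 were not called, with a median of -0.02. Over all tested genes 24% were higher and 22.8% lower, and 6958 of 13073 were not called. lin-13, for a zinc-finger protein that binds the heterochromatin protein HPL-2, had 1111, 1039 and 1108 CPM against 634, 623 and 692 CPM, a change of 0.74 on the log2 scale (SE 0.06, adjusted p = 1.01e-04). The double mutant libraries were all above N2. lin-15B, a repressor of germline genes in the soma, had 546, 542 and 579 CPM against 379, 374 and 435 CPM, a change of 0.49 on the log2 scale (SE 0.08, adjusted p = 0.00109), and lin-61, a reader of the mark, had 118, 111 and 109 CPM against 137, 131 and 136 CPM, a change of -0.26 on the log2 scale (SE 0.04, adjusted p = 0.00564). Both calls were lost with all 12 libraries in 1 fit (adjusted p = 0.0686 and 0.144), whereas lin-13 was called there too (adjusted p = 0.0118). The SET-domain gene set-11 was nearly silent in N2 and had 0.527, 0.369 and 0.234 CPM against 0, 0.0484 and 0.0494 CPM, a change of 3.56 on the log2 scale (SE 0.47, adjusted p = 0.00302). It lay below the filter on low counts in every N2 library, so its p-value is not support for the direction. hpl-2 had 144, 132 and 142.4 CPM against 139, 152 and 155 CPM and the perinuclear anchor gene cec-4 had 275, 279.9 and 284 CPM against 343, 280.1 and 329.7 CPM, and neither passed the threshold.

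The small RNA machinery showed a few larger changes. Of 42 tested genes, 7 were higher and 12 lower, with a median of -0.03. These shares, 16.7% and 28.6%, stand beside 24% and 22.8% of all tested genes. The Argonaute gene sago-2 had 0.991, 0.954 and 1.05 CPM against 0.112, 0.0727 and 0.0494 CPM, a change of 3.58 on the log2 scale (SE 0.22, adjusted p = 8.76e-05), and wago-4, a germline Argonaute gene, had 51.7, 54.5 and 55.9 CPM against 27.4, 28.6 and 33.7 CPM, a change of 0.85 on the log2 scale (SE 0.10, adjusted p = 2.05e-04). For both, all double mutant libraries lay above all N2 libraries. sago-2 lay below the filter on low counts in every N2 library, so its p-value is not support for the direction. eri-6, for a helicase of the ERGO-1 small RNA route, had 11.4, 11.1 and 10.9 CPM against 23.3, 22.4 and 21.5 CPM, a change of -1.01 on the log2 scale (SE 0.04, adjusted p = 8.35e-05), and rde-11 had 15.7, 18.04 and 16.24 CPM against 40.5, 29.6 and 34.8 CPM, a change of -1.07 on the log2 scale (SE 0.14, adjusted p = 3.22e-04). The nuclear Argonaute genes hrde-1, at 354, 369.8 and 379 CPM against 363, 374 and 447 CPM, and nrde-3, at 583, 579.8 and 611 CPM against 509, 554 and 585 CPM, did not pass. With all 12 libraries in 1 fit, sago-2, wago-4, eri-6 and rde-11 were the 4 genes of the list that were called. In that fit wago-4 differed from both single labels as well: its log2 difference was 1.72 (adjusted p = 8.48e-05) from the libraries labelled met-2 and 2.08 (adjusted p = 2.69e-05) from set-25.

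Apart from the mutated genes, the strongest decreases were of a few genes on several chromosomes. plk-3 (chromosome IV, 7470860 to 7473209 on the reverse strand in the WBcel235 annotation), for a polo-like kinase, had 1.16, 0.954 and 0.888 CPM against 24.8, 25.4 and 26.2 CPM, a change of -4.66 on the log2 scale (SE 0.11, adjusted p = 4.60e-07). ztf-15 (chromosome I, 7255380 to 7258700 on the forward strand in the WBcel235 annotation), for a zinc-finger protein, had 2.32, 2.15 and 2.36 CPM against 31.01, 33.3 and 37.5 CPM, a change of -3.90 on the log2 scale (SE 0.09, adjusted p = 4.60e-07). hint-3, for a protein of the histidine triad family, had 0.907, 0.824 and 0.748 CPM against 7.52, 8.77 and 11.1 CPM, a change of -3.46 on the log2 scale (SE 0.18, adjusted p = 1.46e-05). The replicates of each genotype were close for plk-3 and ztf-15, and N2 library c was the highest for all 3. trx-2, the mitochondrial thioredoxin gene, had 6.07, 5.98 and 5.79 CPM against 22.1, 17.1 and 20.5 CPM, a change of -1.74 on the log2 scale (SE 0.11, adjusted p = 3.54e-05), and tpk-1, for thiamine pyrophosphokinase, had 0.506, 0.737 and 0.841 CPM against 2.53, 2.23 and 2.12 CPM, a change of -1.73 on the log2 scale (SE 0.22, adjusted p = 5.23e-04). fbxa-107 had 0.907, 1.06 and 0.934 CPM against 3.69, 3.61 and 3.95 CPM, a change of -1.95 on the log2 scale (SE 0.08, adjusted p = 7.33e-05). Of genes without a symbol, Y11D7A.7 had 2.36, 2.49 and 2.57 CPM against 22.8, 20.7 and 25.4 CPM, a change of -3.21 on the log2 scale (SE 0.09, adjusted p = 1.37e-06), and R11A8.1 had 0.611, 0.715 and 0.701 CPM against 4.33, 4.36 and 3.93 CPM, a change of -2.63 on the log2 scale (SE 0.08, adjusted p = 2.19e-05). The tRNA gene ZK822.t1 had 0.211, 0.477 and 0.210 CPM against 3.92, 0.896 and 0.840 CPM, a change of -2.68 on the log2 scale (SE 0.79, adjusted p = 0.0304), a value that N2 library a decides, since without it the change was -1.51. The call was lost when double mutant library a or c, or N2 library c, was left out (adjusted p = 0.0642 to 0.0911), and with no filter on low counts (adjusted p = 0.125).

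The neighbours of plk-3 were lower too. The longest run of adjoining tested genes that were all lowered at least 2-fold held 4 genes on chromosome IV (7466681 to 7476182), namely F55G1.7, plk-3, F55G1.6 and slc-25A18.2. F55G1.7 had 0.169, 0.520 and 0.397 CPM against 1.35, 1.48 and 1.28 CPM, a change of -1.92 on the log2 scale (SE 0.43, adjusted p = 0.00185). F55G1.6 had 5.10, 4.75 and 4.67 CPM against 14.8, 14.2 and 15.98 CPM, a change of -1.63 on the log2 scale (SE 0.06, adjusted p = 3.29e-05). In these genes too the groups did not overlap. slc-25A18.2, for a mitochondrial carrier, had 0.717, 0.954 and 0.654 CPM against 2.68, 2.83 and 3.33 CPM, a change of -1.92 on the log2 scale (SE 0.18, adjusted p = 2.30e-04). A run of 3 lowered genes on chromosome III (4291543 to 4296599) held nth-1, a base excision repair gene, with 7.15, 6.63 and 7.24 CPM against 22.03, 23.01 and 24.3 CPM, a change of -1.72 on the log2 scale (SE 0.06, adjusted p = 1.23e-05), with R10E4.6, which overlaps it on the opposite strand, and R10E4.7 (log2 changes of -1.08 and -1.103). Whether the counting used strand is not known here, so reads of overlapping genes cannot be told apart. Runs of lowered genes were looked for after their values were seen, and the 4 runs of 3 or more held 13 of the 205 genes lowered at least 2-fold.

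Raised genes were more numerous than lowered ones and lay in more runs. More runs can follow from their number alone, and no expected number of runs was computed. There were 82 runs of 3 or more adjoining tested genes raised at least 2-fold, with 277 genes, 15.8% of the 1756. The longest held 6 genes, and 4 runs had that length. On chromosome II (6631105 to 6683544) the run was T19D12.4, T19D12.6, oig-8, T19D12.1, H43E16.1 and ift-74, with log2 changes of 1.38 to 3.21. On chromosome V (11438764 to 11488290) it was dmsr-1, F57B7.2, mig-17, zipt-16, srh-1 and T11F9.10, with changes of 1.01 to 2.28, and further along (19752399 to 19873931) clec-50, M162.5, M162.9, clec-258, Y116F11B.2 and Y116F11B.10, with 1.13 to 3.41. On the X chromosome (11047446 to 11072047) clc-1, lpr-3, lpr-6, lpr-5, lpr-4 and apt-9 rose by 1.02 to 3.03, all transcribed from the same strand. The lpr genes there code for lipocalin-related proteins of apical surfaces. lpr-3 had 135, 144 and 142.1 CPM against 71.2, 73.96 and 62.1 CPM, a change of 1.02 on the log2 scale (SE 0.08, adjusted p = 4.44e-05), and lpr-5 had 60.1, 62.0 and 57.4 CPM against 17.1, 20.9 and 6.18 CPM, a change of 2.02 on the log2 scale (SE 0.54, adjusted p = 0.00877), with N2 library c well below the other N2 libraries for lpr-5.

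By place, raised genes were most frequent on the X chromosome and chromosome V. On the X, 33.7% of tested genes were higher and 11.8% lower, and on V 27.01% were higher and 19.9% lower, against 24% and 22.8% over the genome. Chromosomes I and III had the fewest raised genes, 19.6% and 17.8%. On the autosomes, the outer parts, each a span of 1 in 3 of the chromosome, had 23.9% of genes higher and 21.4% lower, and the central parts 19.3% higher and 30.4% lower. Raised by at least 2-fold were 12.57% of arm genes and 11.8% of centre genes. The places also differed in level: the median N2 level of tested genes was 6.66 CPM on the X, 15.7 CPM on the arms and 29.2 CPM in the centres, and the part of level in these shares was not tested. Pseudogenes had 94 higher and 80 lower of 417 tested, shares of 22.5% and 19.2%, near those of all tested genes. Among short structured RNAs, the called genes were lower, with 36.6% of tested snoRNA genes, 11 of 29 snRNA genes and 9 of 24 tRNA genes lower and none higher. None of 14 tested piRNA genes was called.

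Genes that differed from N2 and from the libraries of both single labels were few. In the fit of all 12 libraries, 14260 genes were tested. Of these, 23.1% were higher and 30.8% lower in the double mutant than in the libraries labelled met-2, and 20.5% were higher and 17.7% lower than in set-25. Higher than in N2 and in both of these were 189 genes (1.33%), and lower than in all 3 were 163 (1.14%). These comparisons share the double mutant libraries, and the changes of each genotype against N2 share the N2 libraries. The libraries with single labels held 16929810 to 25667207 gene counts, fewer than the others, so depth and genotype cannot be told apart there.

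The pseudogene C07D8.2 led the genes that were higher in the double mutant than elsewhere, at 0.949, 0.975 and 0.901 CPM where no other library passed 0.196 CPM. Its log2 difference was 3.34 from N2 (adjusted p = 0.0112), 3.61 from the libraries labelled met-2 (adjusted p = 0.00172) and 3.67 from set-25 (adjusted p = 0.00294). fbxa-43, with 4.23 to 5.28 CPM in the double mutant, had at most 1.18 CPM in any library labelled met-2 or set-25, and differed by 3.13 (adjusted p = 4.47e-04) and 3.21 (adjusted p = 5.64e-04) from those labels in turn. sri-62 had 1.18 to 1.28 CPM against at most 0.392 CPM in a library with a single label, and C55C3.3 had 4.54 to 5.95 CPM against at most 1.14 CPM. nspd-7 had 0.833 to 0.995 CPM and T16G12.3 had 0.694 to 1.57 CPM, each against at most 0.235 CPM. The adjusted p-values of these 4 genes against the single labels were 3.30e-04 to 0.00296. C07D8.2, sri-62, nspd-7 and T16G12.3 passed the filter on low counts only with double mutant libraries. Their p-values are not support for the direction. Further down the same ranking, and named after their values were seen, were sago-2, with 1.05 to 1.16 CPM against at most 0.353 CPM in a library with a single label, and enu-3.5. enu-3.5 had 5.39, 4.81 and 6.93 CPM in the double mutant and 0.434 to 1.098 CPM in the libraries with single labels, a difference of 2.87 (adjusted p = 6.19e-05) and 3.12 (adjusted p = 4.59e-05). Its family members enu-3.2, enu-3.3 and enu-3.6 also rose against N2 in the 6 libraries, with log2 changes of 2.45, 2.51 and 1.76.

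Among genes lowest in the double mutant, ztf-15 had 2.36 to 2.60 CPM there, 26.6 to 35.3 CPM where met-2 alone was the label and 36.1 to 47.5 CPM in set-25, differences of -3.57 (adjusted p = 3.20e-07) and -4.10 (adjusted p = 7.69e-08). plk-3 was intermediate in the libraries with single labels, with 8.98 to 12.1 CPM in those labelled met-2, 11.5 to 15.4 CPM in set-25, and thus between 27.42 to 28.996 CPM in N2 and 0.978 to 1.27 CPM in the double mutant. cwp-4 had no count in the double mutant and at most 0.549 CPM elsewhere, and oat-1 had 0.0238 to 0.0463 CPM against 0.158 to 0.824 CPM in the libraries with single labels. The raised cuticle genes col-74 and cut-3 had the other order. Against N2, col-74 changed by 7.51 in the double mutant, 11.9 in the libraries labelled met-2 and 10.5 in set-25, and the double mutant lay below them by log2 differences of -4.39 (adjusted p = 6.37e-04) and -3.02 (adjusted p = 0.00614). cut-3 changed by 5.15, 9.23 and 7.58, with differences of -4.09 (adjusted p = 2.11e-04) and -2.43 (adjusted p = 0.00506). The collagen gene col-45, chosen after its values were seen, was instead highest in the double mutant, at 1.02 to 1.48 CPM against at most 0.627 CPM in any other library.

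Of the deposited repeat families, 248 were tested. In the double mutant 33 (13.3%) were higher and 28 (11.3%) were lower. Of the raised families 11 were LTR retrotransposons, 6 DNA transposons and 14 simple repeats, and the other 2 were RTE1, a non-LTR retrotransposon, and NDNAX2, with log2 changes of 0.34 each (adjusted p = 0.0231 and 0.0180). Of the lowered families 12 were palindromic or inverted repeat elements. The count of lowered families fell to 11 without double mutant library a, to 10 without c and to 4 with all 12 libraries in 1 fit. The count of raised families fell to 22 in the fit of all 12 libraries and was 30 to 35 when 1 library was left out. RTE1 lost its call in 4 of the alternatives described below and NDNAX2 in 3. The sources used here do not say how reads shared by several copies, or by a copy and its host gene, were assigned, so a family's count may hold RNA of genes that contain the repeat.

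LTR retrotransposons carry their own reverse transcriptase between terminal repeats. Of 37 tested families 11 were higher and 4 lower, and among the internal parts, named with I, 8 of 16 were higher and 2 lower, with a median of 0.49. Of the raised internal parts, CER8-I, CER12-I and CER15-I each lost the call in 1 of the alternatives. CER10-I had 8.29, 9.23 and 9.32 CPM (repeat counts over scaled gene counts) in the double mutant and 1.18, 1.31 and 1.46 in N2, a change of 2.77 on the log2 scale (SE 0.10, adjusted p = 1.42e-08). CER3-I had 8.88, 8.22 and 9.58 against 2.38, 2.18 and 3.01, a change of 1.82 on the log2 scale (SE 0.15, adjusted p = 6.04e-07), and CER9-I had 10.4, 11.1 and 9.93 against 3.86, 3.51 and 3.98, a change of 1.47 on the log2 scale (SE 0.07, adjusted p = 3.62e-07). In each of these families the genotypes did not overlap. CER16-2-I had 3.98, 3.86 and 3.53 against 2.14, 1.48 and 1.63, a change of 1.11 on the log2 scale (SE 0.16, adjusted p = 5.10e-04). Other internal parts fell from low levels. CER11-I had 9, 10 and 14 raw counts against 41, 21 and 38, a change of -1.60 on the log2 scale (SE 0.32, adjusted p = 0.00448), and CER16-I had 15, 22 and 18 against 55, 30 and 43, a change of -1.22 on the log2 scale (SE 0.23, adjusted p = 0.00558). The terminal repeats were less changed, with 3 higher and 2 lower of 20 tested and a median of 0.02. CER3-LTR had 10, 17 and 13 raw counts against 42, 22 and 31, a change of -1.24 on the log2 scale (SE 0.26, adjusted p = 0.0104), in the direction opposite to that of CER3-I. The more abundant CER3-1-LTR went the same way as CER3-I, with 8.90, 10.9 and 10.2 CPM against 8.59, 7.56 and 7.93. Its log2 change was 0.32, a call lost in 6 of the alternatives. CER10-LTR rose with CER10-I, by 1.48.

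Among 27 tested DNA transposons, which move as DNA by a transposase, 6 were higher and 1 lower. CEMUDR1, a Mutator-like element, had 301, 314 and 320.0 CPM against 75.1, 73.6 and 73.98, a change of 2.07 on the log2 scale (SE 0.03, adjusted p = 1.01e-09), from 13699 to 14485 raw counts per double mutant library. The N2 libraries lay close together and far below every double mutant library. The summed level of the class was 752 to 772 in the double mutant and 520 to 541 in N2, and without this family 432 to 458 and 447 to 467. Its relative CEMUDR2 had 27.2, 25.7 and 27.4 against 17.6, 18.9 and 15.9, a change of 0.62 on the log2 scale (SE 0.08, adjusted p = 4.47e-04). Both Mutator-like families rose in every double mutant library. Turmoil1 had 25, 35 and 38 raw counts against 9, 8 and 9, a change of 1.89 on the log2 scale (SE 0.23, adjusted p = 8.64e-04). Tc1, the best known mobile element of the worm, had 16.15, 18.5 and 15.3 against 11.6, 10.998 and 14.4, a change of 0.43 on the log2 scale (SE 0.14, adjusted p = 0.0192), a call lost with all 12 libraries in 1 fit (adjusted p = 0.159) and without double mutant library b or N2 library b. TC2 was the lowered family, with 35.0, 37.7 and 35.6 against 47.1, 44.3 and 51.7, a change of -0.40 on the log2 scale (SE 0.07, adjusted p = 0.00555), lost in that fit (adjusted p = 0.128).

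**Figure D5:**
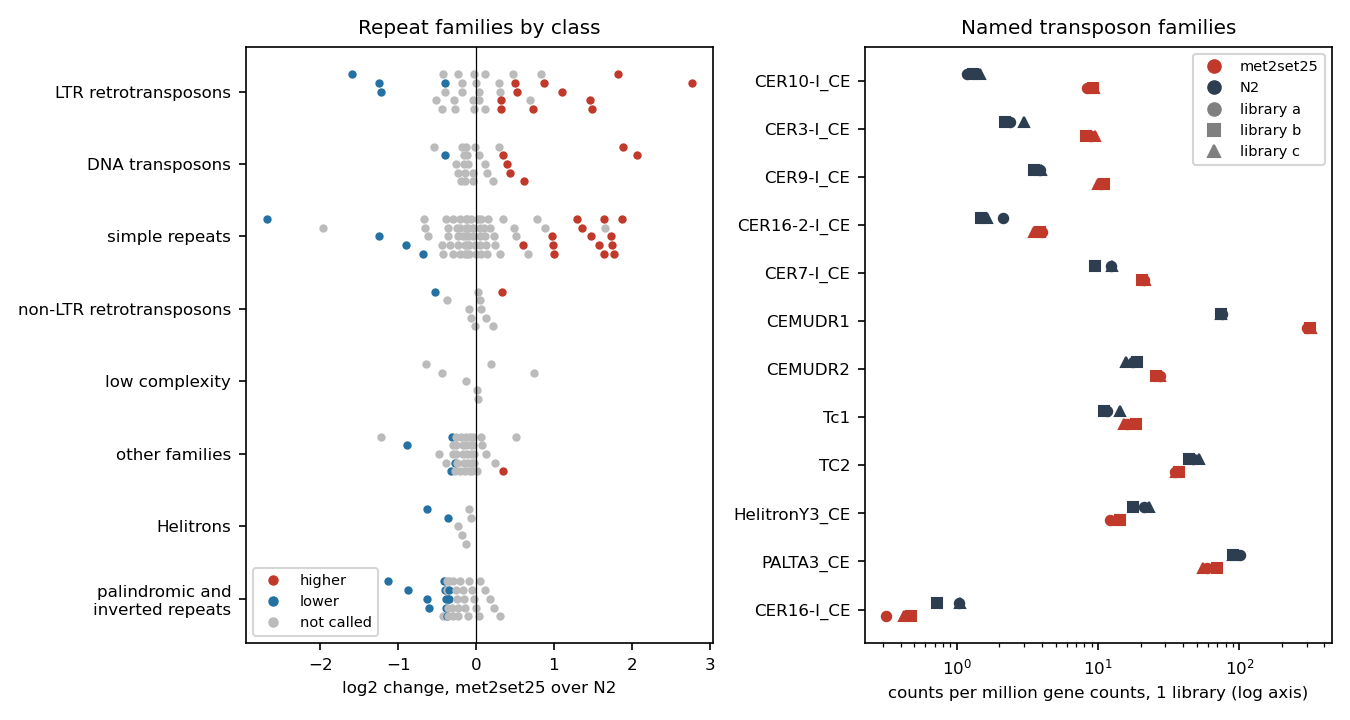
At left, each point is 1 tested repeat family by its log2 change in met2set25 over N2, in rows by class, red for families called higher and blue for lower. At right, the CPM of 12 named families are shown for each library on a log axis. CER10-I and CEMUDR1 have the widest gaps between genotypes, and the palindromic class has lowered families and no raised one.

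Simple repeats are short units in tandem, and 14 of 76 tested families were higher and 4 lower. The family name gives the unit, read 5′ to 3′, and the units are printed because the raised families come in pairs that are the strands of one duplex. (GAATG)n had 27.2, 23.9 and 27.9 CPM against 6.19, 6.88 and 8.52, a change of 1.87 on the log2 scale (SE 0.15, adjusted p = 2.75e-07), and its complement (CATTC)n had 12.7, 10.6 and 12.4 against 3.15, 3.44 and 4.05, a change of 1.75 on the log2 scale (SE 0.13, adjusted p = 3.47e-07). (GATTG)n had 26.1, 24.2 and 28.8 against 5.21, 8.94 and 9.21, a change of 1.77 on the log2 scale (SE 0.27, adjusted p = 6.15e-04), and its complement (CAATC)n rose by 1.47 (SE 0.25). Both families of each pair were above N2 in every double mutant library. (TCCA)n had 42.7, 35.1 and 38.1 against 10.6, 13.6 and 12.9, a change of 1.64 on the log2 scale (SE 0.13, adjusted p = 3.41e-07), and (TGGA)n rose by 0.99 (SE 0.13). (CGGGA)n had 6.60, 5.81 and 6.17 against 1.76, 2.03 and 1.78, a change of 1.74 on the log2 scale (SE 0.08, adjusted p = 8.68e-07), and (TCCCG)n rose by 1.00 (SE 0.24). (CATCC)n had 16.6, 15.7 and 16.6 against 4.61, 5.79 and 6.003, a change of 1.58 on the log2 scale (SE 0.12, adjusted p = 3.41e-07), and (GGATG)n rose by 1.35 (SE 0.24). (CGA)n and (TCG)n rose by 1.299 (SE 0.20) and 0.97 (SE 0.21). These 6 units account for 12 of the 14 raised simple repeats, out of 26 units with 2 or more tested families. The grouping by unit was made after the values were seen. The lowered (CTAGT)n had 5, 7 and 7 raw counts against 15, 27 and 76, a change of -2.68 on the log2 scale (SE 0.76, adjusted p = 0.0470), a difference of -1.68 without N2 library c, and one not called when any double mutant library was left out (adjusted p = 0.154 to 0.266). (TCTG)n fell from 46, 25 and 23 raw counts to 10, 13 and 16, a change of -1.25 on the log2 scale (SE 0.27, adjusted p = 0.0115), and was not called with all 12 libraries in 1 fit (adjusted p = 0.757).

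Palindromic and inverted repeat elements were 12 lower and none higher of 40 tested, with a median of -0.30. PALTA3 had 59.2, 69.5 and 55.6 against 100.7, 90.2 and 89.7, a change of -0.61 on the log2 scale (SE 0.11, adjusted p = 8.06e-04). TIR43YW1 had 2.57, 4.90 and 2.69 against 6.80, 5.45 and 6.32, a change of -0.87 on the log2 scale (SE 0.31, adjusted p = 0.0345), with double mutant library b near N2, and NPAL0A had only 8 raw counts in each double mutant library against 16, 16 and 20. Helitrons, which replicate by a rolling circle, were 2 lower and none higher of 7, as for HelitronY3 with 12.1, 14.3 and 13.4 against 20.98, 17.6 and 22.8, a change of -0.63 on the log2 scale (SE 0.13, adjusted p = 0.00132). CeRep59 had 2.36, 2.84 and 3.107 against 3.599, 4.63 and 7.16, a change of -0.88 on the log2 scale (SE 0.31, adjusted p = 0.0345), with N2 library c highest, and was not called when any double mutant library was left out. With all 12 libraries in 1 fit PALTA3 (adjusted p = 0.0605), TIR43YW1 (adjusted p = 0.0745), HelitronY3 (adjusted p = 0.0776) and CeRep59 (adjusted p = 0.0745) were not called, and 4 families in all were lower. With library sizes taken from the repeat table itself, 18 were.

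The share of counts in all repeat families together differed between genotypes by less than the libraries spread. The share of all gene and repeat counts was 1.12%, 1.202% and 1.0999% in double mutant libraries a, b and c and 1.17%, 1.33% and 1.15% in N2, a mean of 1.14% ± 0.0543 against 1.22% ± 0.0984 (SD, n = 3 each). The difference had p = 0.4 in a two-sided exact permutation test, in which 3 against 3 libraries can give no p below 0.1. N2 library b was the highest of all. Without CELE45, the most abundant family, the shares were 0.604% to 0.632% in the double mutant and 0.605% to 0.627% in N2 (exact permutation p = 0.9).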

How the data were processed

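RNA of early embryos was sequenced in 12 libraries of 4 genotypes, and the 6 of the double mutant and of N2 were used for the main comparison. The deposited values are whole-number read counts per gene and per repeat family, with a width in bases for each, per the file headers. No source used here names the authors' aligner, counter, genome build or strand setting, nor how reads with several matches were counted. Library totals were 41033729 to 52683919 gene counts in these 6 libraries, which limits precision for genes under about 1 CPM. Intervals cover counting error only.

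Gene names and positions came from the Ensembl annotation of WBcel235, in which 97.3% of the gene identifiers were found. Counts were filtered by edgeR's default rule for low counts, scaled by TMM and tested with the quasi-likelihood test (edgeR 4.0.16, R 4.3.3), with Benjamini-Hochberg adjustment over all tested features and a threshold of 0.05. Repeat families were scaled by the library sizes of the gene table. Fold changes are edgeR's, and standard errors come from log2 CPM with a prior count of 2 (n = 3 libraries per genotype). For the repeats as a share of all counts, an exact permutation test over libraries was used.

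Named genes were the mutated genes, then the 12 highest and 8 lowest changes with a symbol and the 3 highest and 3 lowest without. These had to be called, at least 2-fold, at a mean of at least 1 CPM and without overlap between genotypes. Also named were up to 3 called members of each list in each direction by adjusted p, raised genes with 3 or fewer N2 counts, the genes that differed from all other genotypes, the longest runs, and repeat families with a mean of at least 20 counts. Others are said to be chosen after their values were seen, or are members given because they were not called. The members, lists and rules were chosen with earlier results of these data known.

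Alternatives were library totals, DESeq2 1.42.0, no filter, all 12 libraries in 1 fit, leaving out each library, and other scales for repeats. The gene lists without N2 library c and with all 12 libraries were added after seeing the data. No pair of replicates agreed within sampling noise in a chi-square test over genes. Double mutant libraries a and c were the closest, at 9.78 per degree of freedom, with 45.9 and 48.0 for the other double mutant pairs and 53.0 to 65.6 within N2. Such a test cannot tell separate cultures from separate libraries of 1 culture, and 2 biological replicates are stated, so each library was kept as a replicate with that limit. The procedure was tested on simulated data.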

Additional observations from a re-analysis of the deposited data

How the results depend on the processing

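No paired analysis was possible because the deposited columns carry letters, and no source ties them to the replicate numbers of the labels. With all 12 libraries in 1 fit, 1241 genes were higher and 476 lower (1193 and 467 of them shared with the 6-library calls), 1125 were at least 2-fold higher and 128 at least 2-fold lower, and 22 repeat families were higher and 4 lower. The cause of this loss was not tested. When TMM was computed within the repeat table, 18 families were lower. Library totals gave 3104 genes higher and 2957 lower, DESeq2 3060 and 2871, and no filter 3332 and 2512. Leaving out 1 library gave 2319 to 3545 genes higher and 1839 to 3143 lower, and 10 to 37 repeat families lower, with the fewest lowered without double mutant library c (1922 genes and 11 families without double mutant library a). Without N2 library c, medians moved to -0.14 for apoptosis, 0.61 for neuron markers, 1.097 for sperm and spermatogenesis markers, -0.12 for fbxa genes, 0.45 for C-type lectins, -0.021 for chemoreceptors, 3.04 for sperm proteins and 0.60 for Hedgehog-related genes. These lists moved by at least the SD of library medians within genotypes, which includes N2 library c. Others moved by less than their SD, some by larger amounts. Muscle went from 1.51 to 1.18, epidermis from 0.65 to 0.48, intestine from 0.61 to 0.40, somatic gonad from 0.28 to -0.0080, maternal transcripts from -0.23 to -0.11 and cuticlins from 0.96 to 0.81. The sperm proteins tested in both fits had a median of 1.28 with all 12 libraries. The 4 tested in the fit of all 12 libraries had a median of 0.38, with 1 called higher. These medians rest on the few members that passed the filter, which can happen through the double mutant alone. The same holds for the sperm and spermatogenesis markers. Such medians do not describe the families. hlh-1, which was not called, had a change of 0.0115 with no filter and of -0.0488 to 0.0761 when a library was left out. Of 2388 values of named genes, 2176 kept direction and side of the threshold, 206 lost the call, 3 gained one and 3, all of hlh-1, changed sign. Of 649 values of named repeat families, 527 kept both and 122 lost the call. With library totals, 131 genes were higher and 172 lower than in all other genotypes.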
